A study of Mus musculus with 4 samples.

Results

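Arhgap36 and 9 genes of the hedgehog pathway (Gli1, Gli2, Gli3, Ptch1, Smo, Sufu, Ihh, Dhh and Hhip) were followed by symbol through a table of 22564 protein-coding genes from newborn mouse islets, the endocrine tissue of the pancreas. All 10 were found, each in a single row. They were chosen by symbol, with the fragment and FPKM differences between the genotypes in these same libraries already known, so their values are given as a description with no test. The 4 libraries were made from islets of mice of strain 129sv at postnatal day 0. They were 2 libraries labelled Mettl3/14nKO and 2 labelled wild-type. Mettl3 and Mettl14 encode partner subunits of the methyltransferase that writes N6-methyladenosine (m6A) into RNA, and the series was concerned with RNA modification. The sources used here do not say what "n" stands for, which cells lose the genes, what drives the deletion or whether animals were pooled. No label says that replicates are separate animals, and the p-values therefore describe a spread between samples that may be technical.

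Hedgehog ligands bind the receptor Ptch1 and so release the membrane protein Smo, which acts at the primary cilium. Without ligand, protein kinase A and its partner kinases phosphorylate Gli2 and Gli3, Sufu holds them back, and Gli3 in particular is cut to a repressor. With ligand, full-length Gli proteins switch on targets that include Gli1, Ptch1 and the ligand trap Hhip. Arhgap36 belongs by sequence to the Arhgap family, but is best known as an inhibitor of the catalytic subunits of protein kinase A that activates Gli proteins without need of Smo. In the embryo the pancreatic epithelium forms where sonic hedgehog is kept off.

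Arhgap36 (ENSMUSG00000036198) spans chrX:49463945-49500244 on the plus strand of mm10 in GENCODE M21, and its exons overlap those of no other annotated gene. RefSeq gives it a distal and a proximal start. The table holds 1 value per gene, so transcripts of the starts cannot be told apart in it. The sequences from 250 bases before to 50 bases after each start, on the plus strand of GRCm38.p6, are shown because they are the regions from which the gene with the widest difference in the set is transcribed. CG dinucleotides are in capitals. The distal window is chrX:49463695-49463994 and the proximal window is chrX:49470200-49470499.
Arhgap36 distal: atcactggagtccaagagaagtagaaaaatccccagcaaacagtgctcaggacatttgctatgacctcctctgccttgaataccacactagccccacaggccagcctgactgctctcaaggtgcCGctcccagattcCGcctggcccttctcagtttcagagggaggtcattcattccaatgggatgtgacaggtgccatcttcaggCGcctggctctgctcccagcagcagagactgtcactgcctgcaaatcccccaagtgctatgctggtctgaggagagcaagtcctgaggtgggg
Arhgap36 proximal: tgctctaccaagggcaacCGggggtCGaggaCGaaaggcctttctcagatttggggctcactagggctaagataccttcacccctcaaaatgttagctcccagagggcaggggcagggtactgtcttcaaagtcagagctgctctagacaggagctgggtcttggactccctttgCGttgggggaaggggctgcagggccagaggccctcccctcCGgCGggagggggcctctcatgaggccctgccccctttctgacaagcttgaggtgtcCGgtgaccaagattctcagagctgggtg
The windows held 3 and 7 CG dinucleotides, and the median over 32851 RefSeq promoter windows of this length was 7. The core sequence that Gli proteins bind, GACCACCCA, was searched on both strands. It was present in 0 of the 10 windows found for 9 members (Gli1 had no entry) and in 0.253% of all promoter windows.

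GGACT, a frequent core of m6A sites, was counted in 1 principal GENCODE M21 transcript of each gene, on the transcript strand. Arhgap36-202 held 2 copies in 3033 bases, or 0.66 per kilobase, against a median of 1.02 per kilobase over 21820 genes (quartiles 0.56 and 1.52). Smo-201 held 8 copies in 3779 bases, or 2.12 per kilobase. Ptch1-201 had 2.20 per kilobase, the most in the set, and Hhip-201 had 0.22, the least. Gli2-201, Gli3-201 and Sufu-201 had 1.66, 1.59 and 1.99 per kilobase. The copies that lie with 10 bases on either side inside the coding sequence are shown for Arhgap36 and Smo. Arhgap36 was lower and Smo higher in Mettl3/14nKO islets (log2 fold changes -2.46 and 1.43). Gli2 was also higher (1.71), on fewer fragments than Smo in each library, and is not shown. Ptch1, Sufu and Gli3 stood at 0.03, 0.35 and -0.25. A link between these copies and the fold changes was not tested. The copy at the stated position is in capitals, while the adjoining copy in the Smo windows at bases 294 and 300 is in lower case. Positions count from the first base of the start codon.
Arhgap36, motif at base 15: cgtggatgctGGACTgcctattcgc
Smo, motif at base 294: tgctggctggGGACTcggactcgca
Smo, motif at base 300: ctggggactcGGACTcgcaggagga
Smo, motif at base 1467: gtagcttccgGGACTatgtgctatg
Smo, motif at base 2207: cagggagcctGGACTctagtctcca
The single coding copy in Arhgap36 lies near the start codon. The 4 Smo copies shown lie at bases 294, 300, 1467 and 2207 of a coding sequence of 2379 bases. The remaining one of its 5 coding copies lies too near an end of that sequence for such a window. A match of letters is a description of the transcript, and no methylation was measured.

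Depth was low. Genes took 1216498 and 744016 fragments of the Mettl3/14nKO libraries, against 1255526 and 1617429 of the wild-type libraries. Levels are given as fragments, as CPM (fragments scaled to the library's total in genes) and as FPKM (scaled to transcript length and to library size). The targeted genes did not pass the test used below. Mettl3 had 30 and 9 fragments in Mettl3/14nKO, against 20 and 47 in wild-type libraries (log2 fold change -0.25, SE 0.40, edgeR adjusted p = 0.849), and without wild-type replicate 2 its log2 fold change was 0.26. In FPKM Mettl3 was lower without overlap, at 6.95 and 5.86 against 8.4 and 14.5, but its CPM overlapped. Mettl14 had 24 and 12 against 32 and 54 fragments (-0.71, SE 0.32, adjusted p = 0.308). It stood at 19.7 and 16.1 against 25.5 and 33.4 CPM. That is lower without overlap, as were 22.6% of all tested genes in CPM. These levels therefore do not check the genotype labels. All 20 endocrine islet markers were detected, led by Ins2 at 31327 and 32698 FPKM in Mettl3/14nKO islets, against 71944 and 82684 FPKM in wild-type islets, and by Ins1 at 8804 and 9143 against 16177 and 18022 FPKM. In RNA from whole islets, fewer cells of a type and less RNA per cell cannot be told apart.

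Arhgap36 was lower in Mettl3/14nKO islets. It stood at 6.57 and 4.91 FPKM in the Mettl3/14nKO libraries and at 35 and 39.5 FPKM in the wild-type libraries. Both Mettl3/14nKO values were far below both wild-type values, and the replicates of each group lay close together. In fragments it had 49 and 26 in Mettl3/14nKO, against 259 and 343 in wild-type libraries. These are 40.3 and 34.9 CPM against 206 and 212 CPM. The exact 95% Poisson intervals, which cover counting error only, reached at most 53.3 CPM in Mettl3/14nKO and no lower than 182 CPM in wild-type libraries. The edgeR log2 fold change was -2.46 (SE 0.17), which makes the wild-type level 5.51-fold the Mettl3/14nKO level. Of the 10956 genes in the fit, 29 had a more negative fold change.

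**Figure D1:**
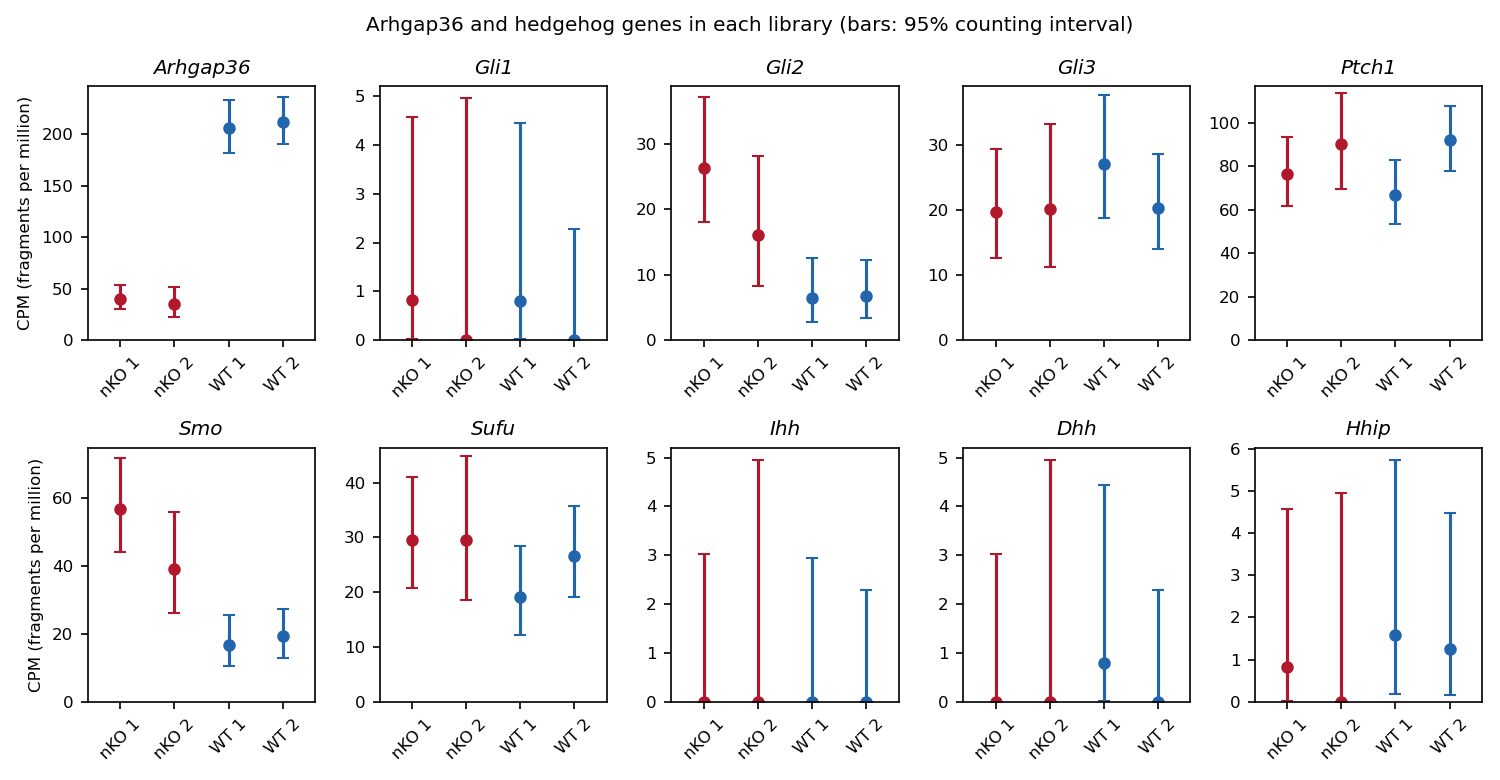
Level of each of the 10 members in CPM in the 4 libraries, Mettl3/14nKO (nKO, red) left of wild-type (WT, blue). Points are libraries and bars are exact 95% Poisson counting intervals, and each panel has its own axis starting at 0. Arhgap36 is at 40.3 and 34.9 CPM in Mettl3/14nKO against 206 and 212 CPM in wild-type libraries, while Smo and Gli2 are higher in both Mettl3/14nKO libraries and Gli1, Ihh, Dhh and Hhip are near 0.

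Per length, Arhgap36 went with the more abundant genes of wild-type islets. Its mean of 5.74 ± 1.17 FPKM in Mettl3/14nKO islets (SD, n = 2) exceeded that of 70.5% of all 22481 symbols, whereas its mean of 37.3 ± 3.16 FPKM in wild-type islets (SD, n = 2) exceeded that of 95.9%. Among 32 Arhgap genes in the table, its mean FPKM ranked 13 in Mettl3/14nKO and 1 in wild-type islets. Arhgap21, which ranked 1 in Mettl3/14nKO islets, stood at 40.1 and 30.6 FPKM in Mettl3/14nKO islets, against 22.2 and 30.0 FPKM in wild-type islets. Its wild-type values did not overlap those of Arhgap36. Its edgeR log2 fold change, on fragments, was 0.03.

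None of the other Arhgap genes in the fit fell. Of 31 in the table, 23 were tested, of which 1 rose and 0 fell by edgeR's quasi-likelihood test at an adjusted p under 0.05, where 2.10% of all tested genes rose, 1.61% fell and 3.71% passed in either direction. DESeq2 called 0 of these genes. Their fold changes had a median of 0.17, against 0.00 for all tested genes, and the lowest was -0.25. The gene that rose was Arhgap24, a Rac-directed GAP, with 76 and 56 fragments in Mettl3/14nKO, against 49 and 50 in wild-type libraries (log2 fold change 0.97, SE 0.25, adjusted p = 0.0489). That call was lost when either Mettl3/14nKO library (adjusted p = 0.0522 and 0.0931) or wild-type replicate 2 (0.387) was left out, with a replicate block (0.0682) and with DESeq2 (0.565). The next by p were Arhgap30 (log2 fold change 1.5, adjusted p = 0.158), Arhgap6 (1.26, 0.199) and Arhgap1 (0.93, 0.297), of which Arhgap1 passed without wild-type replicate 2 (0.0472).

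**Figure D2:**
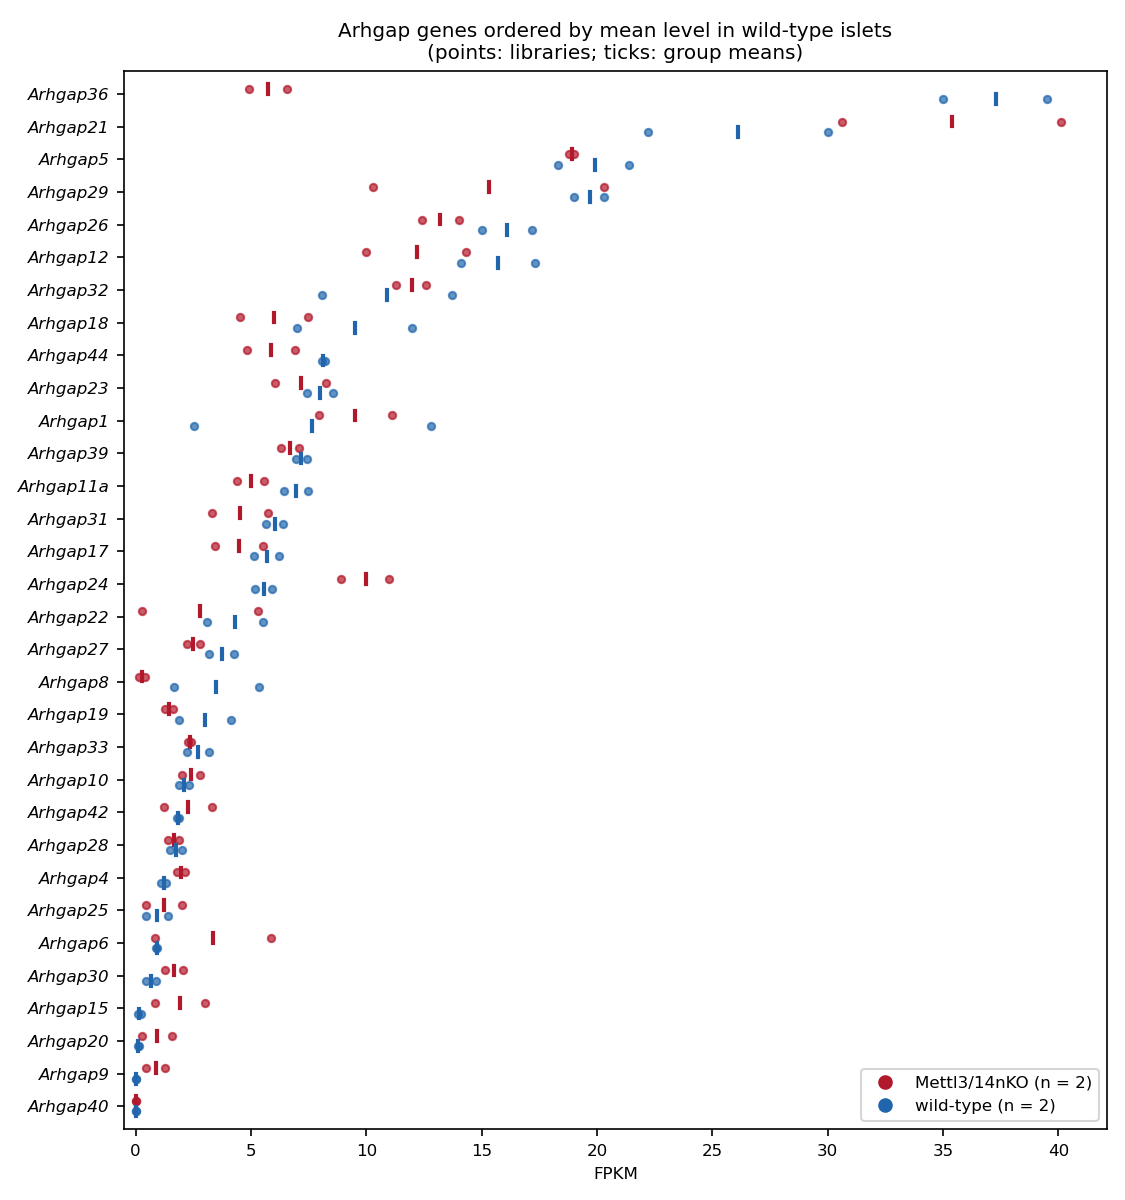
FPKM of Arhgap36 and 31 other Arhgap genes in Mettl3/14nKO (red, upper row of each gene) and wild-type islets (blue, lower row), with points for the 2 libraries of each group and ticks for group means, ordered by the wild-type mean. Arhgap36 lies at 6.57 and 4.91 FPKM in Mettl3/14nKO islets, against 35 and 39.5 FPKM in wild-type islets, the highest wild-type mean of the 32 genes.

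The 5 genes most like Arhgap36 over the 4 libraries were Kank3, Ednrb, Mmrn2, Mfi2 and Sgip1. Likeness was the Euclidean distance between log2(CPM + 1) values centred on each gene's mean, and it was 0.39 to 0.47 for these genes against a median of 2.48 over 10953 genes. Ednrb, a receptor for endothelins, had 27 and 16 fragments in Mettl3/14nKO, against 135 and 143 in wild-type libraries, a log2 fold change of -2.16. Mmrn2, an extracellular matrix protein of blood vessels, had 14 and 5 against 79 and 79 fragments, and a log2 fold change of -2.53. Kank3, Mfi2 and Sgip1 had at most 5 fragments in any Mettl3/14nKO library and 19 to 30 in the wild-type libraries. With 4 libraries in 2 groups, likeness reflects the genotype difference and little else.

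Summed marker levels were lower in both Mettl3/14nKO libraries for endothelial, endocrine, and glia and neuron markers. Single glia and neuron markers went both ways. Of 10 tested, 6 had positive and 4 negative log2 fold changes, with a median of 0.17 and a range of -2.45 to 3.52. The 16 endothelial markers together had 549 and 356 CPM in Mettl3/14nKO libraries, against 1490 and 1216 CPM in wild-type libraries, with 8 of 15 tested lower by edgeR, where 1.61% of all tested genes were. All 15 had negative log2 fold changes, with a median of -1.21. The 20 endocrine markers together had 62283 and 78013 CPM in Mettl3/14nKO libraries, against 100024 and 102101 CPM in wild-type libraries, with 5 of 20 lower by edgeR. Single endocrine markers went both ways: 9 had positive and 11 negative log2 fold changes, with a median of -0.10 and a range of -2.24 to 1.25. Eng and Cdh5, the endothelial markers of highest FPKM, stood at 10.3 and 9.42 FPKM against 36.1 and 37.5 FPKM, and at 14.3 and 8.33 against 30 and 28 FPKM. No marker of either list was at 0 in all libraries. The part of these cell types in the Arhgap36 difference was not tested.

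**Figure D3:**
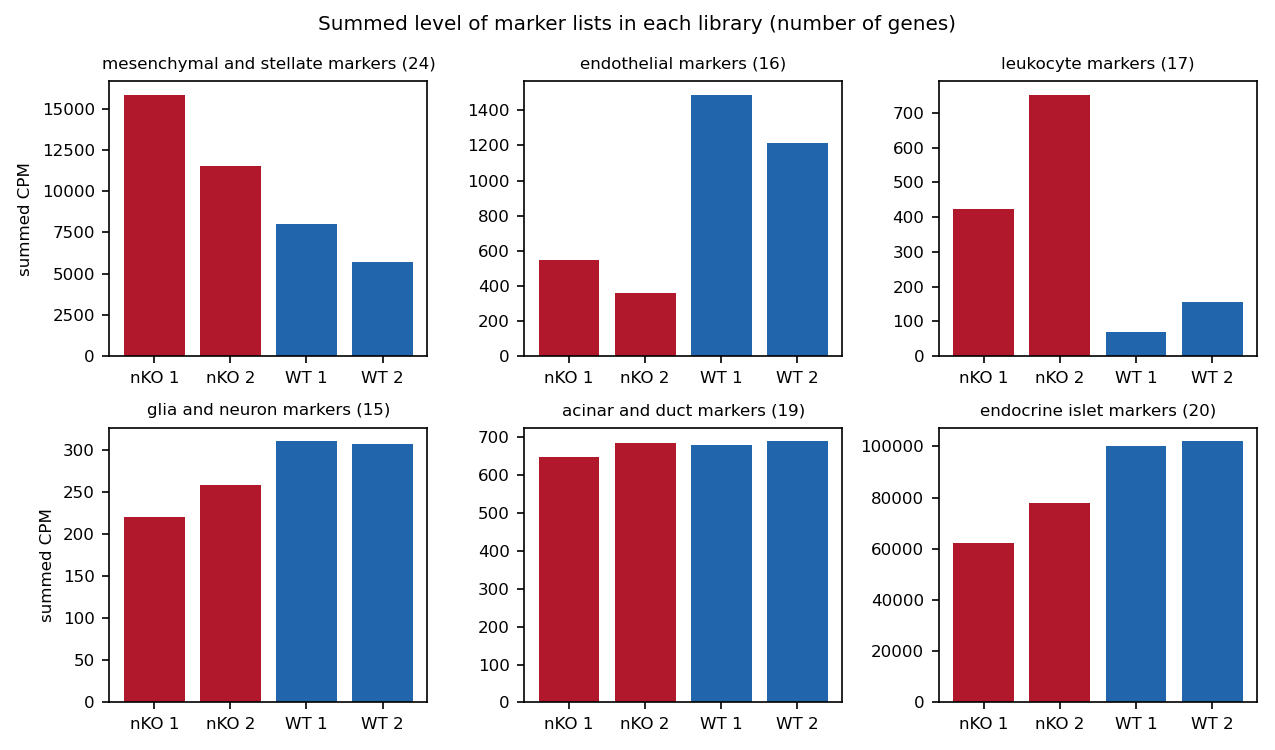
Summed CPM of 6 lists of cell type markers in each library, Mettl3/14nKO (nKO, red) left of wild-type (WT, blue), with the number of genes in each title and bars starting at 0. Mesenchymal sums are 15864 and 11552 CPM in Mettl3/14nKO and 8029 and 5676 CPM in wild-type libraries, and endothelial, endocrine, and glia and neuron sums are lower in both Mettl3/14nKO libraries. Of 10 glia and neuron markers tested, 6 had positive and 4 negative log2 fold changes.

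Ligand transcripts were barely detected in these islets. Ihh, the Indian hedgehog ligand (ENSMUSG00000006538, chr1:74945315-74951672), had 0 fragments in all 4 libraries. Dhh, the desert hedgehog ligand (ENSMUSG00000023000, chr15:98891152-98898540), had 0 and 0 fragments in Mettl3/14nKO, against 1 and 0 in wild-type libraries. The third ligand gene, Shh, is no member and was looked up after the others had been seen, and it had 0 fragments in every library. A count of 0 allows up to 3 fragments, which is 2.47 and 4.03 CPM in Mettl3/14nKO and 2.39 and 1.85 CPM in wild-type libraries. Lower levels were not detectable at this depth, and no difference between genotypes could be read for any ligand.

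Gli1 and Hhip, which hedgehog signalling switches on in many tissues, were as scarce. Gli1 (ENSMUSG00000025407, chr10:127329882-127341974) had 1 and 0 fragments in Mettl3/14nKO, against 1 and 0 in wild-type libraries. Hhip (ENSMUSG00000064325, chr8:79965851-80058006) had 1 and 0 against 2 and 2 fragments. Together with Ihh and Dhh these genes held 8 fragments over all libraries. These 4 members did not pass the filter on low counts, and fold changes are not given for them. The other 6 members passed it, with at least 8 fragments in each library.

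Ptch1, the ligand receptor and itself a hedgehog target, had the highest FPKM of the hedgehog genes in both groups. Ptch1 (ENSMUSG00000021466, chr13:63508328-63573598) stood at 8.51 and 8.49 FPKM in Mettl3/14nKO islets, against 7.87 and 11.8 FPKM in wild-type islets. Its fragments numbered 93 and 67 in Mettl3/14nKO, against 84 and 149 in wild-type libraries. The groups overlapped. Its log2 fold change was 0.03 (SE 0.20), and leaving out single libraries moved it between -0.16 and 0.29. Ptch1 transcript was present at 66.9 to 92.1 CPM in the libraries in which Gli1 and Hhip had 0 to 2 fragments.

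Smo, the signal transducer downstream of Ptch1, was higher in Mettl3/14nKO islets. Smo (ENSMUSG00000001761, chr6:29735503-29761365) stood at 7.25 and 4.19 FPKM in Mettl3/14nKO islets, against 2.25 and 2.82 FPKM in wild-type islets. In fragments it had 69 and 29 against 21 and 31, or 56.7 and 39.0 CPM against 16.7 and 19.2 CPM. Both Mettl3/14nKO libraries were above both wild-type libraries on either scale, with Mettl3/14nKO replicate 1 the highest. The log2 fold change was 1.43 (SE 0.30), a 2.69-fold difference on the fragments, and it was 1.12 without Mettl3/14nKO replicate 1. On the deposited FPKM it was 0.89 with a pseudocount of 1 and 1.10 with a pseudocount of 0.1, where the median over all genes fitted was -0.21 and -0.24.

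Gli2, the main activator among the Gli transcription factors in mammals, was also higher. Gli2 (ENSMUSG00000048402, chr1:118834132-119053619) stood at 3.70 and 3.5 FPKM in Mettl3/14nKO islets, against 2.17 and 0.846 FPKM in wild-type islets. It had 32 and 12 fragments in Mettl3/14nKO, against 8 and 11 in wild-type libraries, or 26.3 and 16.1 CPM against 6.37 and 6.80 CPM. The groups did not overlap, but the 95% counting interval of Mettl3/14nKO replicate 2, from 8.33 to 28.2 CPM, reached into those of the wild-type libraries. The log2 fold change was 1.71 (SE 0.44), with 1.29 without Mettl3/14nKO replicate 1 and 0.93 on log2(FPKM + 1).

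Gli3, the main repressor of the family, differed little. Gli3 (ENSMUSG00000021318, chr13:15463235-15730026) had 24 and 15 fragments in Mettl3/14nKO, against 34 and 33 in wild-type libraries, or 19.7 and 20.2 CPM against 27.1 and 20.4 CPM. The Mettl3/14nKO values lay just below the lower wild-type value. In FPKM the groups overlapped, at 1.44 and 2.15 in Mettl3/14nKO islets, against 4.14 and 1.78 in wild-type islets. The FPKM deposited per fragment of Gli3 ranged from 0.0540 to 0.143 between libraries. The log2 fold change was -0.25 (SE 0.33), and -0.04 without wild-type replicate 1.

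Sufu, which restrains Gli proteins in the cytoplasm, was near even. Sufu (ENSMUSG00000025231, chr19:46396896-46488804) stood at 4.18 and 3.53 FPKM in Mettl3/14nKO islets, against 3.34 and 4.43 FPKM in wild-type islets. It had 36 and 22 fragments in Mettl3/14nKO, against 24 and 43 in wild-type libraries. The groups overlapped in FPKM but not in CPM, at 29.6 and 29.6 against 19.1 and 26.6. The log2 fold change was 0.35 (SE 0.31) on fragments and -0.0036 on log2(FPKM + 1).

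For the 6 members in the fit, overlap between the groups is given as a description. In CPM the groups did not overlap for 3 members that were higher (Smo, Gli2 and Sufu) and 2 that were lower (Arhgap36 and Gli3). Of all tested genes, 45.2% did not overlap in either direction, 22.6% of them higher and 22.6% lower as shares of all tested. Nothing is read from these counts, since the members were chosen with this contrast known. On the FPKM scale none of the 12213 genes with a mean FPKM of 1 or more passed limma. On log2(FPKM + 1), 1477 of these 12213 had an unadjusted limma p under 0.05.

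**Figure D4:**
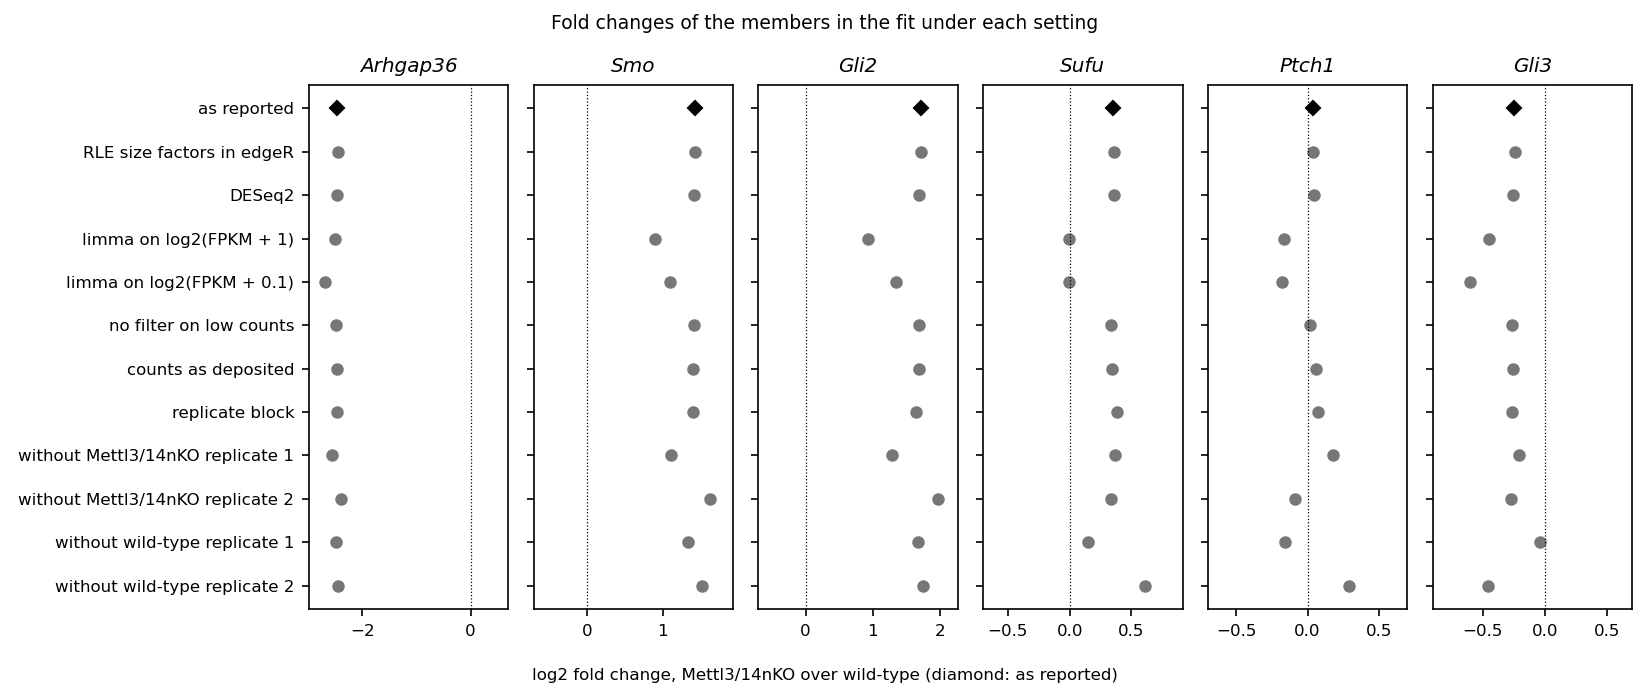
The log2 fold change of Mettl3/14nKO over wild-type for the 6 members in the fit, as reported (diamond) and under 11 alternatives (circles), with the dotted line at 0 and an axis for each gene. Arhgap36 stays between -2.69 and -2.39 and Smo between 0.89 and 1.63, while Ptch1 and Sufu lie on both sides of 0.

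By mean FPKM, the order of the members differed between the genotypes. In Mettl3/14nKO islets it ran Ptch1 (8.5), Arhgap36 (5.74), Smo (5.72), Sufu (3.86), Gli2 (3.6) and Gli3 (1.79), and the libraries overlapped between Arhgap36 and Smo and between Sufu and Gli2. In wild-type islets it ran Arhgap36 (37.3), Ptch1 (9.85), Sufu (3.89), Gli3 (2.96), Smo (2.53) and Gli2 (1.51), and the libraries overlapped between Sufu and Gli3 and between Gli3 and Smo. Hhip, Gli1, Dhh and Ihh were at or under 0.266 FPKM in both groups, and the libraries overlapped between neighbours in the order. In wild-type islets both Hhip values, 0.175 and 0.149, lay above those of Gli1 and Ihh, on 2 fragments in each library.

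Mesenchymal and stellate markers were mostly higher in Mettl3/14nKO islets. Of 21 tested, 12 rose and 0 fell by edgeR, with a median log2 fold change of 0.91. Of all tested genes, 2.10% rose and 1.61% fell. Sparc and Col1a1, the markers of highest FPKM, stood at 307 and 158 FPKM in Mettl3/14nKO against 173 and 134 FPKM in wild-type islets, and at 233 and 143 against 101 and 65.9 FPKM. The 24 mesenchymal markers together had 15864 and 11552 CPM in Mettl3/14nKO libraries, against 8029 and 5676 CPM in wild-type libraries. The sum over leukocyte markers was 424 and 753 CPM in Mettl3/14nKO libraries, against 70.1 and 156 CPM in wild-type libraries, and 8 of 16 tested rose. It was led by S100a9 at 62.9 and 244 against 1.24 and 22.8 FPKM, and S100a8 at 46.5 and 158 against 0 and 10.8 FPKM. With 2 libraries in a group, the order of the libraries ties no marker list to Smo or Gli2. Glia and neuron markers, led by Uchl1 and Stmn2, had 221 and 259 CPM in Mettl3/14nKO libraries, against 311 and 307 CPM in wild-type libraries, with 2 of 10 higher and 2 lower. Acinar and duct markers, led by Spp1 and Krt7, had 647 and 684 against 679 and 690 CPM, with 2 of 8 higher and 1 lower. No marker in these lists was at 0 in all libraries. The part of these cell types in the Smo and Gli2 values was not tested.

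The genes around the members mostly did not pass. On simulated fragments edgeR recovered 54% of 2-fold changes and DESeq2 32%, so a gene that was not called may still differ. Of 18 tested genes that release, bind or relay hedgehog ligands, 1 rose and 0 fell by edgeR, with a median log2 fold change of 0.08. Of all tested genes, 2.10% rose and 1.61% fell. The gene that rose was Gpc6, a cell-surface heparan sulfate proteoglycan, with 98 and 57 fragments in Mettl3/14nKO, against 53 and 39 in wild-type libraries (log2 fold change 1.27, SE 0.27, adjusted p = 0.0204). That call was lost with DESeq2 (adjusted p = 0.172), without wild-type replicate 2 (0.265) and when Mettl3/14nKO replicate 1 was left out (0.0535). Cdon, a ligand co-receptor, had 85 and 52 against 126 and 170 fragments (-0.56, adjusted p = 0.104). Hhat, which attaches palmitate to the ligands, had 7 and 3 against 17 and 25 fragments (-1.51, adjusted p = 0.137), and Arrb2, a beta-arrestin, had 54 and 36 against 40 and 39 (0.73, 0.199).

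Of 28 tested ciliary transport genes, 0 rose and 1 fell by edgeR, where 2.10% of all tested genes rose and 1.61% fell. Negative log2 fold changes were found for 21 of them, with a median of -0.23, and for 5431 of all 10956 tested genes, with a median of 0.00. Wdr35, a subunit of the complex that carries cargo back from the ciliary tip, fell to 6.13 and 7.01 FPKM in Mettl3/14nKO, against 16.6 and 17.7 FPKM in wild-type islets (log2 fold change on fragments -0.90, SE 0.19, adjusted p = 0.0225). It had 60 and 37 against 122 and 141 fragments, with no overlap in CPM. The call was lost with DESeq2 (0.403) and when Mettl3/14nKO replicate 1 (0.0963) or either wild-type library (0.0866 and 0.165) was left out. Wdr19 of the same complex stood at -0.63 (adjusted p = 0.476), Ift80 at -0.38 (0.444) and Inpp5e, a phosphatase of ciliary lipids, at 0.45 (0.460).

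Protein kinase A, the kinase that Arhgap36 inhibits, showed no called subunit. Of 32 tested genes of the kinase and of Gli processing, 0 rose and 0 fell by edgeR, where 2.10% of all tested genes rose and 1.61% fell. At those shares a list of this size would hold few called genes. The median log2 fold change was -0.04. DESeq2 called 0 in that list. The 4 genes of smallest edgeR p in the list, none of them called, included Gnas, the stimulatory G protein subunit (log2 fold change 0.35, adjusted p = 0.197). The others were the kinase Gsk3a (0.43, 0.211), and the regulatory subunits Prkar1b (-0.37, 0.233) and Prkar1a (-0.26, 0.308). The catalytic subunit genes were named after their values had been seen. Prkaca had 159 and 97 fragments in Mettl3/14nKO, against 162 and 206 in wild-type libraries (0.02), and Prkacb had 252 and 184 against 323 and 430 (-0.22).

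Genes known as hedgehog targets in other tissues did not pass either. Of 27 listed, 15 were tested, and 0 rose and 0 fell by edgeR, where 2.10% of all tested genes rose and 1.61% fell. DESeq2 called 0 in this list, and the edgeR median log2 fold change was -0.05. Sfrp1, a secreted Wnt antagonist, had 51 and 17 fragments in Mettl3/14nKO, against 16 and 21 in wild-type libraries (1.37, adjusted p = 0.0566), and passed without Mettl3/14nKO replicate 2 (0.00417). Prdm1, a transcriptional repressor, had 16 and 9 against 32 and 50 fragments (-1.16, 0.0917). Snai1 stood at -0.82 (0.388) and the survival gene Bcl2 at 0.52 (0.460). The deposited annotation names 48 genes of the KEGG hedgehog pathway, 9 of them members. Of 16 tested among the other 39, 1 rose and 0 fell by edgeR, where 2.10% of all tested genes rose and 1.61% fell. Of these 16, all but Rab23, Wnt4 and Wnt5a were already counted in the lists above, so this is no separate set. The median was 0.02. Wnt4, a secreted Wnt ligand, had 300 and 172 fragments in Mettl3/14nKO, against 188 and 232 in wild-type libraries (0.70, SE 0.13, adjusted p = 0.0114), and did not pass without wild-type replicate 2 (0.225) or with DESeq2 (0.130). Wnt5a (1.33, 0.0873) and Gas1 (1.01, 0.290) passed without Mettl3/14nKO replicate 2 (0.000302 and 0.000826) and without wild-type replicate 1 (0.0411 and 0.0407), but without Mettl3/14nKO replicate 1 they stood at 0.38 and -0.37. Btrc, a ubiquitin ligase subunit that acts on Gli proteins, stood at 0.30 (0.417).

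**Figure D5:**
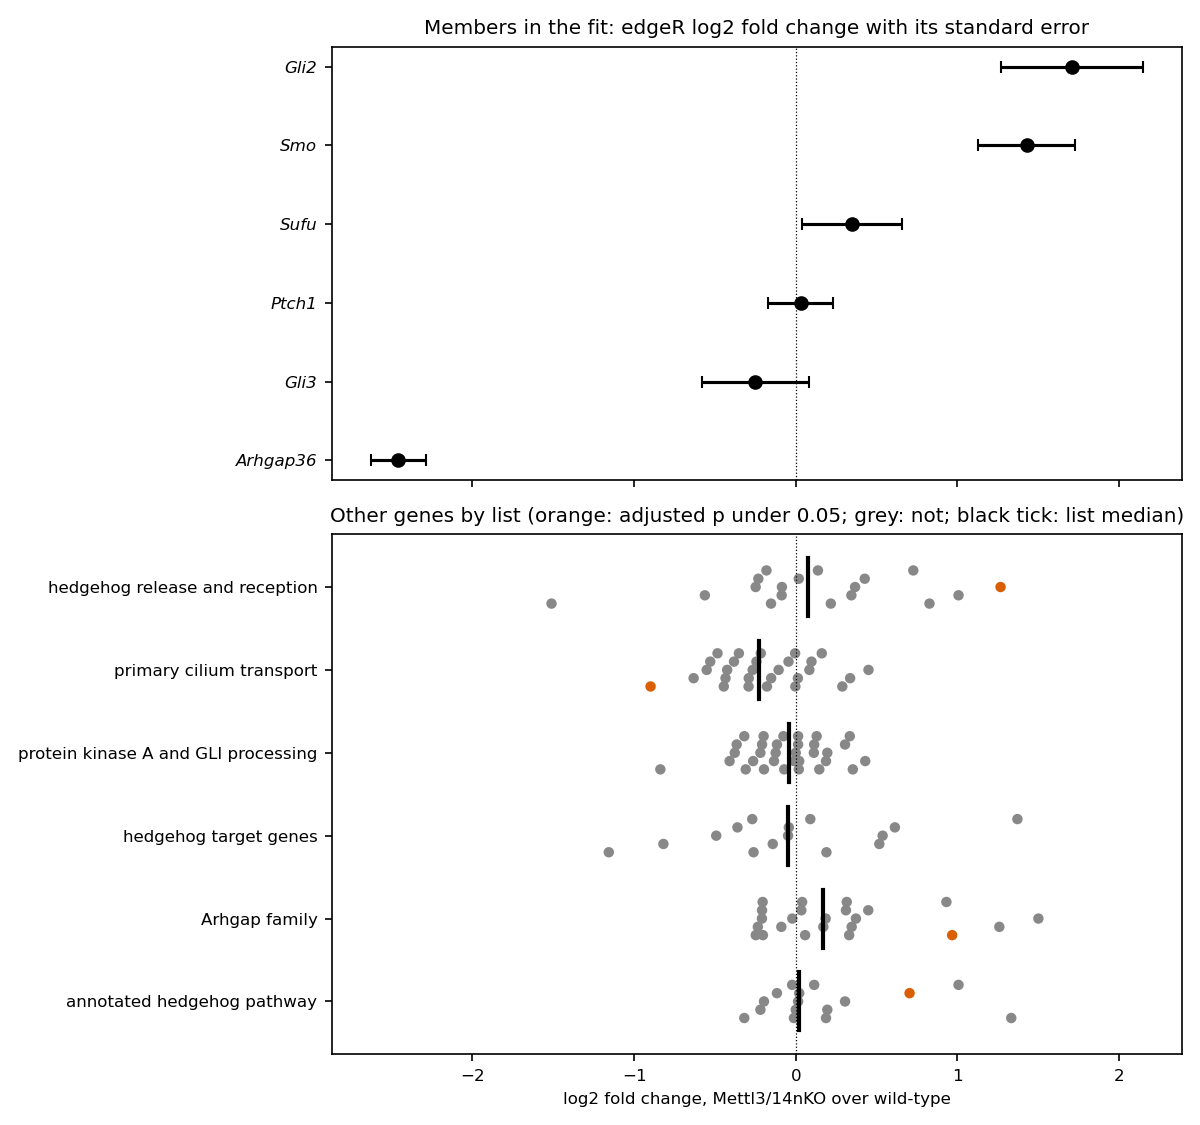
Log2 fold changes of Mettl3/14nKO over wild-type from edgeR, for the 6 members in the fit with standard errors (top) and for the other genes of 6 lists (bottom), with orange points at an adjusted p under 0.05 and black ticks at list medians. Arhgap36 lies at -2.46, below every gene of the lists, while list medians lie between -0.23 and 0.17. Most genes of the annotated list are also in another list.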

How the data were processed

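Total RNA from islets was freed of ribosomal RNA, made into directional libraries and read from both ends, per the labels' protocols. HISAT2 2.0.4, cutadapt 1.9.3, Cufflinks, Cuffdiff and mm10 are listed, per the submitters' processing notes. The sources used here do not give the annotation, the filters or whether counting used strand. The deposited table gives FPKM and estimated counts, per the file headers. Between 92.3% and 93.2% of a library's estimated counts above 0 lay within 0.01 of a whole multiple of a step (0.968, 1.33, 0.982 and 0.835). They were divided by it, rounded and summed by symbol to give the fragments used. For 79 symbols several genes were summed, none of them a member, and 1 line of the table had been emptied.

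The main test was edgeR 4.0.16 (quasi-likelihood, TMM factors, filterByExpr) in R 4.3.3, two-sided, adjusted by Benjamini-Hochberg over all 10956 genes tested, with calls at 0.05. The SE is the absolute log2 fold change over the root of F. Alternatives were median-ratio factors, DESeq2 1.42.0, limma 3.58.1 on log2(FPKM + 1) and log2(FPKM + 0.1) (mean FPKM of 1 or more), no filter, undivided counts, a replicate block and each library left out. Fits were tested on simulated fragments. Of 2-fold changes edgeR recovered 54%, DESeq2 32% and limma 24%, and of 4-fold changes 88%, 71% and 80%. The simulation set each gene's spread by its level alone and kept its FPKM per fragment constant between libraries. The data do not keep to this, so recovery in them may be lower. Fold changes from limma are on the log2(FPKM + pseudocount) scale, on which the pseudocount draws the ratio of low values toward 0. The members and gene lists were chosen with earlier results of these data known. Text names all members, the called genes of each list (at least 4 by smallest p), the 5 genes nearest to Arhgap36 with a mean of at least 5 CPM, the 2 markers of highest FPKM per list, and otherwise genes said to be chosen after seeing values. Overlap of exons was read from GENCODE M21 (mm10), where Gli1, Gli3, Dhh and Hhip overlap genes on the opposite strand and Dhh also Rhebl1 on its own. Promoters are from RefSeq (GRCm38.p6).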

Additional observations from a re-analysis of the deposited data

How the results depend on the processing

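Calls over all genes depended on the test. Against 230 higher and 176 lower, DESeq2 gave 92 and 50, limma 0 and 0 with either pseudocount, and edgeR without a filter 469 and 388. Leaving out 1 library gave 44 to 390 higher and 31 to 285 lower, the lowest without wild-type replicate 2. In the gene lists, each gene called (1 of hedgehog release and reception, 1 of ciliary transport, 1 Arhgap gene and 1 annotated hedgehog gene) was lost with DESeq2 and with limma, which gave 0 in each. Without a filter the counts higher were 2 of release and reception, 1 target gene, 2 Arhgap genes and 3 annotated genes, and 1 target gene was lower. Gas1 is in both the release and reception list and the annotated list. With a replicate block, and with counts as deposited, 0 Arhgap genes were higher. Leaving out 1 library gave 0 to 2 genes higher for release and reception, 0 to 1 lower for ciliary transport, 0 to 1 higher for targets, 0 to 1 for Arhgap genes and 0 to 3 for annotated genes.

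On log2(FPKM + 1) the log2 fold changes of Gli2, Gli3, Smo and Sufu were 0.93, -0.45, 0.89 and -0.0036, and on log2(FPKM + 0.1) they were 1.34, -0.60, 1.10 and -0.0029, with Arhgap36 at -2.69. Leaving out 1 library gave -2.57 to -2.39 for Arhgap36, 1.29 to 1.96 for Gli2, -0.46 to -0.0393 for Gli3, 1.12 to 1.63 for Smo and 0.15 to 0.61 for Sufu. The cause of these shifts was not tested. The FPKM settings changed the scale, the filter and the model together, and leaving out a library also lowered the number of libraries. Where a group kept 1 library, that library was assumed to vary like the others. Same-numbered libraries did not deviate together (r = 0.02 over 10956 genes), so the replicate block, with 215 higher and 166 lower, rests on a shared number only. Depth limits Gli1, Ihh, Dhh and Hhip most, since 3 fragments are worth 1.85 to 4.03 CPM.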
